A study of Mus musculus with 12 samples.

Results

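Enzymes that make squalene and turn it into cholesterol were followed through their transcripts in mouse peritoneal macrophages. The members were 9 named genes, Fdft1, Sqle, Lss, Cyp51, Msmo1, Nsdhl, Hsd17b7, Sc5d and Dhcr7, taken by symbol from a count table of 12339 genes, and all 9 were present. The table held RNA-seq counts of 12 libraries from mice of 2 genotypes on 2 diets. WT is wild type, and meKO is read from the series title as a myeloid knockout of protein kinase C epsilon (gene Prkce); the Cre line that would drive it is not given in the sources used here. Every mouse, chow-fed controls included, received the same injection of a viral vector at 8 weeks of age. Over the next 4 weeks part of each genotype ate a high-fat "Western" diet (HFD), with which the labels say the mice become hypercholesterolemic, and the rest stayed on chow. Thioglycolate was then used to draw macrophages into the peritoneal cavity, which was washed out to collect them. Each genotype had 3 libraries per diet, while the labels describe 8 animals per genotype, 4 of them on HFD. The labels do not say how libraries map to animals, so p-values measure the spread between these libraries.

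Cholesterol is built from acetyl-CoA through mevalonate to farnesyl pyrophosphate, and from squalene onward the carbon is committed to sterols. The genes of the route are textbook targets of the transcription factor SREBP2 (gene Srebf2), which Scap carries out of the endoplasmic reticulum when that membrane is poor in cholesterol and which Insig proteins hold back when it is rich. Macrophages can also take cholesterol from lipoproteins, and when sterols accumulate the nuclear receptors LXR switch on genes of cholesterol export and fatty acid desaturation.

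The 9 genes lie on 9 chromosomes (GRCm38.p6, whole gene spans). The genes up to lanosterol are Fdft1 (Entrez 14137) at chr14:63145150-63181687, Sqle (Entrez 20775) at chr15:59315092-59331193 and Lss (Entrez 16987) at chr10:76531565-76557139. The demethylation genes are Cyp51 (Entrez 13121) at chr5:4080674-4104697, Msmo1 (Entrez 66234) at chr8:64718123-64733578, Nsdhl (Entrez 18194) at chrX:72918521-72958528 and Hsd17b7 (Entrez 15490) at chr1:169949535-169969242. The last stage is represented by Sc5d (Entrez 235293) at chr9:42251592-42264300 and Dhcr7 (Entrez 13360) at chr7:143823167-143848410. Exons overlap those of a gene on the opposite strand for Fdft1 (774 bases, with Ctsb), Lss (381 bases, with 4930483K19Rik) and Cyp51 (166 bases, with Akap9).

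Because SREBP2 acts with NF-Y and Sp1 at its target promoters, the 250 bases before each transcription start were searched on both strands for 4 motifs: the SREBP core TCACCNCA, the NF-Y box CCAAT, the Sp1 box GGGCGG and the E-box CACGTG. The RefSeq promoter table (GRCm38.p6) matched 7 of the 9 members with 9 windows, Dhcr7 having 3 starts; Fdft1 and Sqle had no entry. Cyp51 and Hsd17b7 held the SREBP core (2 of 9 windows, against 3.6% of all 32851 windows and 3.2% of those of genes in the count table). In Cyp51 the match begins 88 bases, and in Hsd17b7 117 bases, before the start used by the table. Each of the 7 genes had an NF-Y box in at least 1 window (7 of 9 windows, against 33.8% of all windows and 35.5% for counted genes). An Sp1 box was found in 8 of 9 windows (32.7% and 56.6%), and an E-box in 3 of 9 (6.0% and 8.5%). Shown here are Cyp51 (chr5:4104698-4104947, minus strand) and Hsd17b7 (chr1:169969243-169969455, minus strand, ending where the annotated gene begins), which hold the core and whose transcripts were lower on HFD in WT. Msmo1 (chr8:64733579-64733828, minus strand) and Nsdhl (chrX:72918271-72918520, plus strand) are shown for contrast, since neither passed the diet test in either genotype; the 4 were thus picked partly by their diet results. Lss, Sc5d and Dhcr7, also lower in WT, had no match to the core in their windows. Sequences read 5′ to 3′, and capitals mark the motif matches, which do not overlap each other in these stretches. A match is a run of letters and does not show binding.
Cyp51: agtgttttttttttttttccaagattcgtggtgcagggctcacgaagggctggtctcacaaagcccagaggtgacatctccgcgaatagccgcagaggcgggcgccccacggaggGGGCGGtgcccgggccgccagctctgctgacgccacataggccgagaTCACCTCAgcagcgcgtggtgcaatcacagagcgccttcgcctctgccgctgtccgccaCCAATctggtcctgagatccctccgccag
Hsd17b7: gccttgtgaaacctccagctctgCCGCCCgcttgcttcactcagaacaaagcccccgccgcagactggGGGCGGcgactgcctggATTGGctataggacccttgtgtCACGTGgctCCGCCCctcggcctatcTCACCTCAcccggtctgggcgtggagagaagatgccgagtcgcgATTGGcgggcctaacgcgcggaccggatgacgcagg
Msmo1: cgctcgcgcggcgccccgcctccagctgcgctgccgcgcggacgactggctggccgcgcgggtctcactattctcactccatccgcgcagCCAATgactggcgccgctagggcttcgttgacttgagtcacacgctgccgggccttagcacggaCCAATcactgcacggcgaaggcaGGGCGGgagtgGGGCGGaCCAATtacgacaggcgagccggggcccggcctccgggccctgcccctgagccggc
Nsdhl: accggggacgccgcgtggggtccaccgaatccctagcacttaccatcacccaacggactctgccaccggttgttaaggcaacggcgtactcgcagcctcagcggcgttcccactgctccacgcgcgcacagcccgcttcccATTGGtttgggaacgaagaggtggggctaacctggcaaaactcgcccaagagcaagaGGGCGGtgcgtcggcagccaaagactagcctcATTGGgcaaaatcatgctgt
All 4 stretches carry NF-Y and Sp1 boxes, and the letters of the core are in those of Cyp51 and Hsd17b7 and not in those of Msmo1 and Nsdhl.

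Libraries held 25844958 to 37282772 counts, and the members together took 0.0162% to 0.0254% of them, with 37 counts as the lowest single value (Hsd17b7 in WT HFD 1). Prkce checked the genotype labels: in WT it was at 4.27, 4.44 and 2.35 CPM (counts scaled to library size with TMM factors) on chow and 2.01, 2.89 and 2.53 on HFD, and in meKO at 1.42, 0.950 and 1.62 on chow and 1.78, 0.954 and 1.51 on HFD, each WT library above each meKO library (averaged log2 difference -1.14 ± 0.22 SE, edgeR adjusted p = 0.0588). All 7 macrophage markers and 0 of 4 hepatocyte markers were listed. The macrophage list summed, on chow and on HFD, to 36700 to 59200 and 35900 to 42900 CPM in WT and to 5520 to 27200 and 21800 to 23800 CPM in meKO. These sums follow Lyz2, the lysozyme gene, at 30482 to 53835 CPM in WT and 16293 to 21309 CPM in 5 meKO libraries. In meKO chow 2 Lyz2 was at 69.3 CPM, which sets that library apart. Without that library the members called for diet numbered 6 in WT, 0 in meKO and 7 averaged over genotypes. The share of all genes called in the same fits is not given here. Those counts therefore show only how many members passed, not whether that is more than for other genes. On chow, Cd68 averaged 2734 CPM for WT and 3474 CPM for meKO, and Adgre1, which encodes a macrophage surface receptor, 645 and 631 CPM. Csf1r (817 and 682 CPM), Itgam (991 and 787 CPM) and Mertk (109 and 89.7 CPM) also had lower chow means in meKO. Fcgr1 had a slightly higher one (139 and 144 CPM). WT chow 1 and WT chow 2 stood apart from the other libraries in that long transcripts were relatively high (Spearman's rho across genes of transcript length with each library's deviation 0.637 and 0.675, against -0.463 to 0.137 in the other 10). The diet results of the 9 enzymes are therefore also given with a correction for transcript length and GC content and, as counts, without these 2 libraries.

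To compare the enzymes with each other, CPM was divided by transcript length. Per kilobase of transcript in WT chow, Msmo1 was highest at 39.99 ± 7.66 CPM (SD, n = 3), followed by Sc5d at 9.70 ± 1.78, Nsdhl at 8.58 ± 0.539, Dhcr7 at 6.87 ± 0.811, Cyp51 at 5.84 ± 1.21, Sqle at 5.14 ± 0.435, Fdft1 at 2.98 ± 0.689, Lss at 1.45 ± 0.125 and Hsd17b7 at 0.772 ± 0.0866. Libraries of Sc5d and Nsdhl, of Dhcr7 and Cyp51, and of Cyp51 and Sqle overlapped, and the other neighbours in this order did not. The meKO chow libraries gave the same order with the same overlaps. On HFD, in both genotypes, Nsdhl stood above Sc5d with no overlap, and Fdft1 and Sqle, which then overlapped, had exchanged places.

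Squalene formation and closure of the sterol ring involve Fdft1, Sqle and Lss. Sqle, the squalene epoxidase that catalyses an oxygen-dependent control step, was at 15.6, 13.4 and 13.6 CPM in WT chow and at 5.08, 5.41 and 4.48 CPM in WT HFD. In meKO its CPM was 10.8, 16.3 and 9.57 on chow and 6.86, 4.69 and 5.92 on HFD. Every HFD library lay below every chow library of its genotype, with the widest chow spread in meKO. In WT, Sqle fell by 1.51 ± 0.202 (SE) on the log2 scale, to 35.2% of its chow level (edgeR adjusted p = 0.00271), and in meKO the log2 difference was -1.07 ± 0.20 (adjusted p = 0.0574). As these are bulk libraries, fewer cells that use the pathway and less RNA of it per cell cannot be told apart.

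Lss, which folds oxidosqualene into lanosterol, was at 7.13, 6.11 and 7.11 CPM on chow against 3.50, 4.03 and 3.97 CPM on HFD in WT, and at 5.12, 5.56 and 5.63 CPM on chow against 4.62, 3.24 and 4.01 CPM on HFD in meKO. The diets did not overlap within either genotype, and the WT chow libraries were the highest of all. It fell by 0.82 ± 0.163 in WT (adjusted p = 0.0114; 0.0526 with the length and GC correction), and its log2 difference in meKO was -0.45 ± 0.163 (adjusted p = 0.252).

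Fdft1, squalene synthase, was at 10.9, 8.52 and 13.6 CPM in WT chow and 8.25, 7.06 and 7.22 CPM in WT HFD. Its meKO values were 8.84, 12.3 and 12.3 CPM on chow and 8.50, 8.39 and 8.58 CPM on HFD. The lowest chow library of each genotype lay only just above the highest HFD library. Fdft1 fell by 0.55 ± 0.178 in WT (adjusted p = 0.0436; 0.224 with the length and GC correction), and the log2 difference was -0.39 ± 0.178 in meKO (adjusted p = 0.304). Its count is uncertain, since it shares exon bases with Ctsb, a lysosomal protease gene at 24887 to 31364 CPM. The strand setting of the counting is not given in the sources used here. Ctsb itself had a log2 diet difference of 0.03 in WT (edgeR adjusted p = 0.828), or 0.30 with the length and GC correction (adjusted p = 0.0775). The part of Ctsb in the Fdft1 count was not tested.

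Stripping of the methyl groups from lanosterol runs through Cyp51 and then the complex of Msmo1, Nsdhl and Hsd17b7. Cyp51, the cytochrome P450 that starts this stage, was at 24.9, 17.5 and 26.4 CPM in WT chow and at 10.3, 9.33 and 10.5 CPM in WT HFD. In meKO it was at 15.3, 22.9 and 22.5 CPM on chow and at 11.1, 11.6 and 11.8 CPM on HFD. HFD libraries of both genotypes were tightly grouped below all chow libraries. Cyp51 fell by 1.19 ± 0.177 in WT, to 43.9% of the chow level (adjusted p = 0.00473), and the log2 difference in meKO was -0.81 ± 0.176 (adjusted p = 0.0932). Cyp51 shares 166 exon bases with Akap9, which averaged 11.65 CPM, and the strand setting is not given. Akap9 had a log2 diet difference of -0.45 in WT (edgeR adjusted p = 0.107), or -0.02 with the length and GC correction. Its part in the Cyp51 count was not tested.

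Hsd17b7, the ketosteroid reductase that closes each round of the C-4 demethylation cycle, was at 4.02, 3.40 and 3.27 CPM in WT chow and at 1.20, 1.62 and 1.20 CPM in WT HFD. In meKO chow it was at 1.62, 2.50 and 2.63 CPM, below all WT chow libraries, and in meKO HFD at 1.04, 1.56 and 1.51 CPM. It fell by 1.41 ± 0.254 in WT, to 37.6% of the chow level (adjusted p = 0.00853), and the log2 difference in meKO was -0.72 ± 0.258 (adjusted p = 0.252).

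Msmo1, the methyl sterol oxidase of the same cycle, did not pass. In WT it was at 79.2, 67.5 and 98.5 CPM on chow and 74.2, 74.7 and 83.3 CPM on HFD, and in meKO at 76.6, 99.4 and 92.5 CPM on chow and 75.9, 86.1 and 82.3 CPM on HFD. The 4 groups overlapped. Its log2 diet difference was -0.08 in WT (95% interval -0.35 to 0.194, adjusted p = 0.698) and -0.14 in meKO (-0.409 to 0.135, adjusted p = 0.633). With the length and GC correction these were -0.24 (edgeR adjusted p = 0.115) and -0.21 (adjusted p = 0.283).

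Nsdhl, the decarboxylating dehydrogenase between them, was at 17.4, 18.7 and 19.7 CPM on chow and 19.6, 18.0 and 21.4 CPM on HFD in WT, with 19.4, 22.0 and 20.1 CPM on chow and 18.7, 21.2 and 18.0 CPM on HFD in meKO. Here too the groups overlapped, and it was the member with the narrowest spread in WT chow relative to its mean. Its log2 diet difference was 0.08 in WT (95% interval -0.145 to 0.308, adjusted p = 0.622) and -0.09 in meKO (-0.314 to 0.139, adjusted p = 0.722). So 2 of the 3 members of the C-4 demethylation complex did not pass while Hsd17b7 did in WT.

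The last steps involve the desaturase Sc5d and Dhcr7, the reductase that yields cholesterol in the branch that passes through lathosterol. Sc5d was at 52.9, 36.8 and 49.6 CPM on chow and 30.9, 28.3 and 31.2 CPM on HFD in WT, and at 36.9, 55.2 and 52.1 CPM on chow and 32.6, 30.6 and 34.3 CPM on HFD in meKO. Diets did not overlap in either genotype. It fell by 0.62 ± 0.159 in WT (adjusted p = 0.0219; 0.0677 with the length and GC correction), with a log2 difference of -0.56 ± 0.159 in meKO (adjusted p = 0.173). In WT, Dhcr7 was at 21.8, 17.3 and 18.9 CPM on chow and 11.4, 13.1 and 12.03 CPM on HFD, and in meKO at 16.2, 13.98 and 14.8 CPM on chow and 12.8, 9.73 and 11.9 CPM on HFD. Again each HFD library was below the chow libraries of its genotype, and the meKO chow libraries were below those of WT chow. Dhcr7 fell by 0.67 ± 0.137 in WT (adjusted p = 0.0123), with a log2 difference of -0.38 ± 0.137 in meKO (adjusted p = 0.252).

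**Figure D1:**
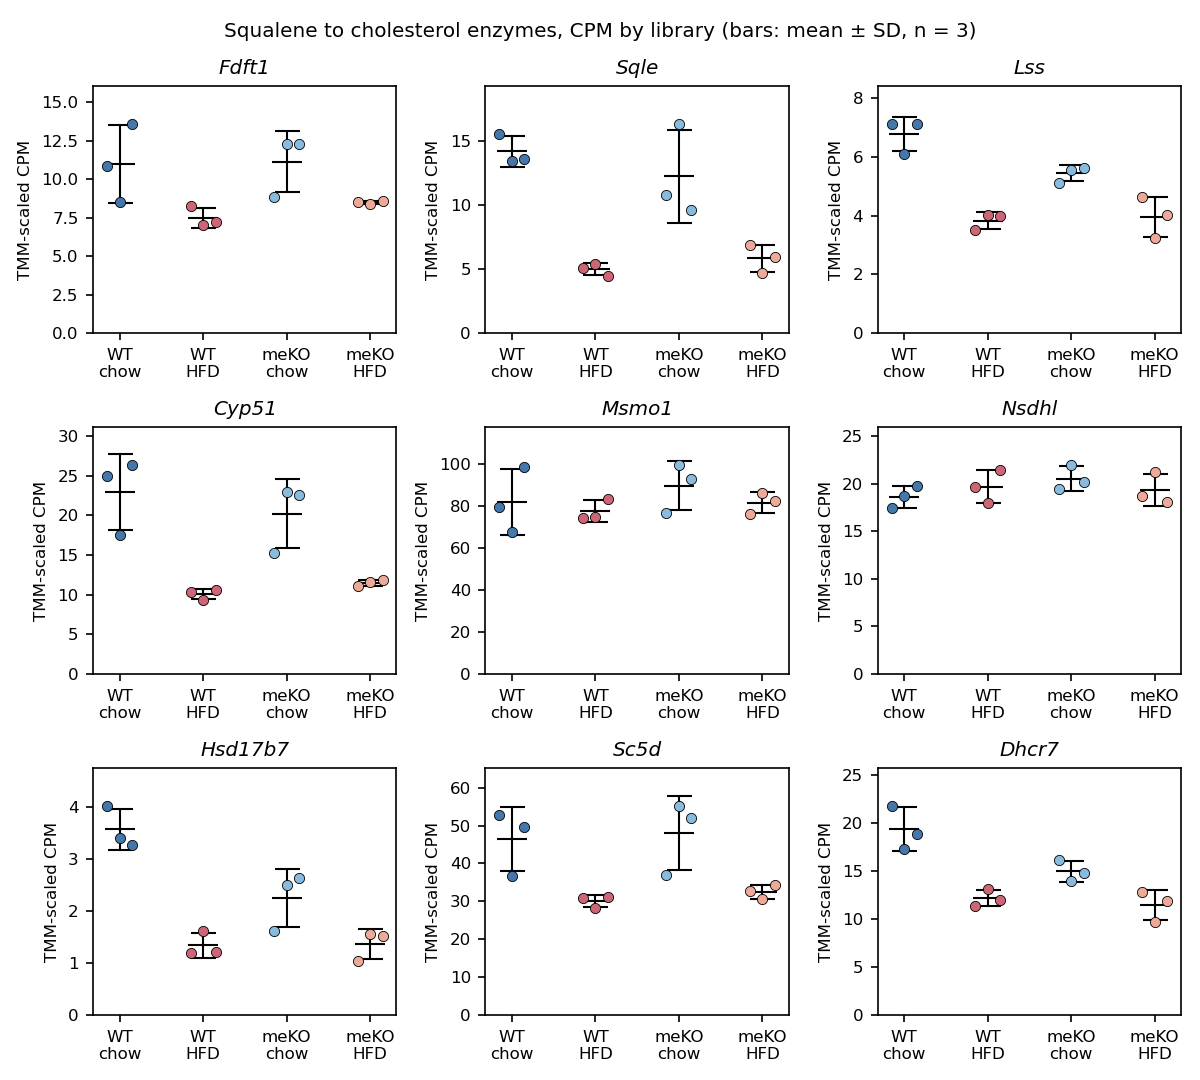
TMM-scaled CPM of each enzyme gene (vertical axes, from 0) in the 12 libraries by group; points are libraries and bars are the mean and SD of 3 libraries. For 7 genes all HFD points lie below the chow points of their genotype, while the groups of Msmo1 (67.5 to 99.4 CPM) and Nsdhl (17.4 to 22.0 CPM) overlap.

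Counted over the pathway, 7 of 9 members were called lower on HFD in WT (edgeR quasi-likelihood test, Benjamini-Hochberg adjusted p under 0.05 over all genes) and 0 higher; of all 12339 genes 21.3% were called and 11.8% were called lower. Their median log2 difference was -0.67, against -0.03 over all genes. The same 7 members had groups that did not overlap, which held in the lower direction for 19.9% of all genes. With the length and GC correction 4 members were called lower, Sqle, Cyp51, Hsd17b7 and Dhcr7 (5.64% of all genes), and the members' median was -0.53. Without WT chow 1 and WT chow 2 only Cyp51 was called (0.0891% of all genes were, in that direction), with the remaining WT chow library assumed to vary like the other groups; the 7 log2 differences then ran from -1.44 (Sqle) to -0.64 (Dhcr7). The count was 2 without WT chow 1 (0.681% of all genes), 2 without WT HFD 3 (0.462%) and 4 without WT HFD 1 (2.23%).

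In meKO, 0 of 9 members were called by edgeR, where 0.105% of all genes were; DESeq2 called 2 lower, Sqle and Cyp51 (0.827% of all genes), and limma-voom with library quality weights called 2 lower (1.5% of all genes). At an unadjusted p under 0.05, 7 of 9 were lower, against 7.16% of all genes, and these 7 had diet groups that did not overlap, against 9.38% of all genes in that direction. The median of the members was -0.45, against -0.01 over all genes. With the length and GC correction 1 was called lower, Sqle (adjusted p = 0.039; 0.195% of all genes).

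Averaged over both genotypes, 7 of 9 members were called lower on HFD, against 30.2% of all genes called and 15.3% called lower. The log2 differences were -1.29 ± 0.142 for Sqle (adjusted p = 0.000396), -1.07 ± 0.181 for Hsd17b7 (0.00418) and -1.002 ± 0.125 for Cyp51 (0.000988), at 41.0% to 49.9% of the chow level. The other 4 called genes had smaller differences, from -0.64 ± 0.115 for Lss (adjusted p = 0.00467) to -0.47 ± 0.126 for Fdft1 (adjusted p = 0.0164). Without WT chow 1 and WT chow 2 the count was 6 (0.891% of all genes), Hsd17b7 having an adjusted p of 0.0503. Under the length and GC correction it was again 7 (10.1% of all genes), with Fdft1 no longer passing (adjusted p = 0.1) and Msmo1 passing at a log2 difference of -0.22 (adjusted p = 0.0356).

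**Figure D2:**
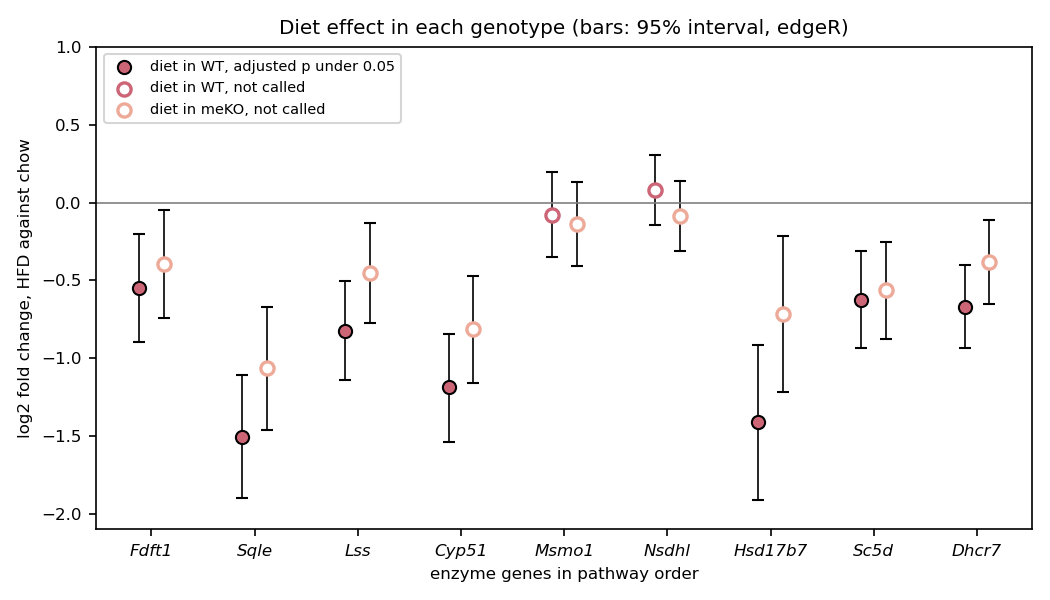
Log2 fold change of HFD against chow for each enzyme gene, in pathway order, in WT and in meKO; bars are 95% intervals from the edgeR fit and filled points passed an adjusted p of 0.05. The 7 filled points are all in WT and run from -1.51 (Sqle) to -0.55 (Fdft1), and the meKO points of the same genes run from -1.07 to -0.38.

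Markers of macrophages and of other cells moved with diet in WT. On chow and HFD, means were 645 and 567 CPM for Adgre1, 817 and 640 for Csf1r, 991 and 674 for Itgam and 109 and 69.3 for Mertk. Lyz2 also had a lower mean on HFD (39577 and 33832 CPM), while Cd68 (2734 and 2980 CPM) and Fcgr1 (139 and 195 CPM) had higher means. The 5 resident large peritoneal macrophage markers summed to 184 to 561 CPM in WT chow and 944 to 1540 CPM in WT HFD, and the 6 mesothelium and fibroblast markers to 31.7 to 43.1 and 49.2 to 71.8 CPM. Within the resident list most of the rise in the sum was in Cd5l (means 384 and 1248 CPM). Icam2 (14.5 and 18.4 CPM) and Gata6 (2.20 and 2.96 CPM) also had higher means on HFD, while Timd4 (20.7 and 13.2 CPM) and Selp (13.5 and 6.34 CPM) had lower ones. Lower in sum on HFD in WT were the listed neutrophil markers (5 of 6, at 124 to 137 against 94.0 to 98.9 CPM), B cell markers (5 of 6, at 106 to 163 against 51.9 to 87.2 CPM) and dendritic cell markers (5 of 5, at 29.1 to 44.1 against 14.8 to 23.0 CPM). Csf3r carried most of the neutrophil sum (means 110.2 and 72.8 CPM), and 3 of those 5 genes, S100a8 (10.4 and 17.5 CPM), S100a9 and Cxcr2, had higher means on HFD. In meKO the resident list (414 to 1020 and 581 to 1400 CPM), the B cell, neutrophil and dendritic lists overlapped between diets, and the mesothelium and fibroblast list did not (36.1 to 49.9 and 58.8 to 91.1 CPM), nor did the T and NK cell list (7.04 to 8.47 and 11 to 14.9 CPM), which overlapped in WT. The part of these cells in the enzyme differences was not tested.

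To ask whether the enzymes moved by the same amount, each member's count was set against the mean of the other 8 within a library, on the log2 scale, which needs no scaling between libraries. Diets were compared by an exact two-sided permutation test within genotypes (400 splits, smallest possible p 0.005), adjusted over the 9 members; the test was chosen after the levels above had been seen. Relative to the other enzymes, Nsdhl was higher on HFD by 0.698 and Msmo1 by 0.595, while Cyp51 and Sqle were lower, with changes of -0.399 and -0.735. The exact permutation p was 0.005 for Nsdhl, Msmo1 and Cyp51 (adjusted p = 0.015) and 0.01 for Sqle (adjusted p = 0.0225).

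For Nsdhl the ratio was 0.328 ± 0.246 in the 6 chow libraries and 1.03 ± 0.165 in the 6 HFD libraries (SD), and for Msmo1 2.71 ± 0.219 and 3.31 ± 0.108. These diets did not overlap, nor did those of Cyp51 (0.463 ± 0.156 and 0.0633 ± 0.113), whereas those of Sqle did (-0.334 ± 0.268 and -1.07 ± 0.215). Hsd17b7 had a change of -0.492 (exact permutation, adjusted p = 0.072), and Fdft1, Dhcr7, Sc5d and Lss lay between -0.0257 and 0.194 with adjusted p from 0.0825 to 0.765. Both Fdft1 and Hsd17b7 lie near the threshold: in the same exact permutation test Fdft1 passed with the length and GC correction (0.288, adjusted p = 0.045) and without WT chow 3 (0.259, adjusted p = 0.018). Hsd17b7 passed without meKO chow 1 (-0.557) or without meKO HFD 2 (-0.566), each with an exact permutation adjusted p of 0.036. Since a ratio shows unequal change only, it does not show which enzyme stayed constant. Msmo1 and Nsdhl have the shortest transcripts of the 9, 2044 and 2168 nt, against 2758 to 4787 nt for the others. After the length and GC correction their ratios were higher on HFD by 0.385 and 0.519, each with an adjusted p of 0.015 in the same exact test.

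**Figure D3:**
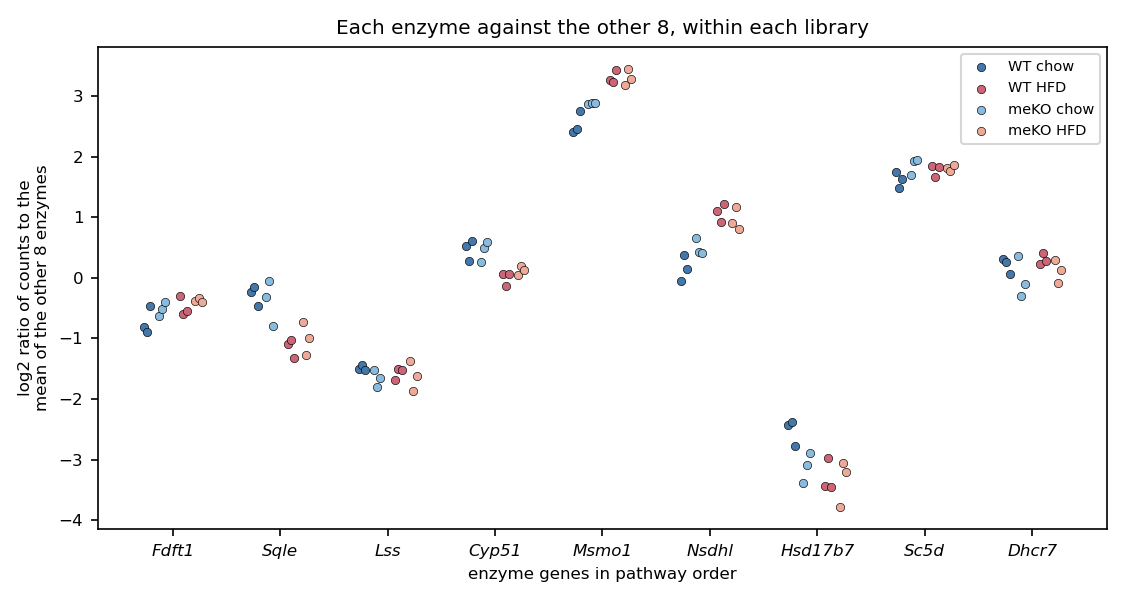
Log2 ratio of each enzyme's count to the mean of the other 8 in the same library, by group; each point is a library. HFD points of Msmo1 and Nsdhl lie above all their chow points, and HFD points of Cyp51 lie below all its chow points.

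Across the 12 libraries the members' log2 CPM moved together to different degrees, given as a description because the libraries share groups and scaling. Over the 36 pairs Pearson's r had a median of 0.735 and ran from -0.418 (Nsdhl with Dhcr7) to 0.962 (Cyp51 with Sc5d). After group means were removed the median was 0.324 and the lowest value -0.742 (Nsdhl with Dhcr7). Cyp51 with Sc5d (0.958), Fdft1 with Cyp51 (0.923) and Cyp51 with Msmo1 (0.875) had the highest of the values, while Sqle with Hsd17b7 was at 0.0108. Lss and Dhcr7 had an r of 0.95 across libraries and 0.75 within groups. Msmo1, which did not pass the diet test in either genotype, thus still varied with Cyp51 among libraries of the same group, while Nsdhl had an r of 0.35 with Cyp51 there.

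Genotype was compared on each diet. On chow, 0 of 9 members were called by edgeR, against 0.081% of all genes, and 2 were lower at an unadjusted p under 0.05, against 12.9%. Hsd17b7 had a log2 difference of -0.67 ± 0.244 in meKO (adjusted p = 0.17), Dhcr7 one of -0.37 ± 0.136 (adjusted p = 0.171) and Lss one of -0.32 ± 0.16 (adjusted p = 0.276; -0.11 with the length and GC correction, adjusted p = 0.789), and these 3 had groups that did not overlap, against 8.28% of all genes in the lower direction. With library quality weights in limma-voom, Hsd17b7 (adjusted p = 0.015) and Dhcr7 (adjusted p = 0.0205) passed, where 17.8% of all genes were called lower. This comparison and the diet comparison in WT share the WT chow libraries. The lower macrophage marker sums in meKO rest on Lyz2, as given above, and its part was not tested.

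On HFD, 0 of 9 members were called (0.081% of all genes) and 0 had an unadjusted p under 0.05 (4.56% of all genes); DESeq2 also called 0. Cyp51 (0.19 ± 0.178, adjusted p = 0.999) and Fdft1 (0.18 ± 0.179, adjusted p = 0.999) had meKO libraries all above the WT libraries, against 5.45% of all genes in that direction. Averaged over diets, 0 members were called (0.17% of all genes), 1 being lower at an unadjusted p under 0.05 (10.6% of all genes), Dhcr7 at a log2 difference of -0.23 ± 0.0967 (adjusted p = 0.254).

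Although members passed the diet test in WT and not in meKO, the test of that difference called 0 of 9 (0.0162% of all genes), and 0 had an unadjusted p under 0.05 (6.13% of all genes). Interaction estimates were positive, a smaller fall in meKO, for 7 of 9, against 52.9% of all genes. They were 0.69 ± 0.361 for Hsd17b7 (95% interval -0.0151 to 1.40, adjusted p = 0.797), 0.44 ± 0.281 for Sqle (-0.111 to 0.992), 0.37 ± 0.247 for Cyp51 (-0.11 to 0.86), 0.37 ± 0.23 for Lss (-0.081 to 0.82) and 0.29 ± 0.193 for Dhcr7 (-0.0911 to 0.667), the last 4 with an adjusted p of 0.812. The intervals cover no difference as well as a much smaller diet response in meKO.

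The rest of the sterol pathway was read in 6 lists, against 11.8% of all genes called lower in WT. Without WT chow 1 and WT chow 2, 2 genes of these lists were called lower in WT (0.0891% of all genes), among them Srebf2, and 1 higher, Scd1. Among 5 other genes of the steps after squalene, 2 were called lower on HFD in WT and 0 in meKO. Lbr, a sterol reductase that is also the lamin B receptor, fell by 0.46 ± 0.128 in WT (adjusted p = 0.0277). The log2 differences of Erg28 (0.30, adjusted p = 0.149) and Tm7sf2 (0.09, adjusted p = 0.728) did not pass there.

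Of the 9 early mevalonate genes, 5 were called lower in WT. Among them, log2 differences were -1.07 ± 0.265 for Idi1, which isomerises isopentenyl pyrophosphate (adjusted p = 0.0207), -0.99 ± 0.215 for Fdps, which makes farnesyl pyrophosphate (0.0144), -0.60 ± 0.131 for Hmgcs1, the HMG-CoA synthase (0.0143), and -0.43 ± 0.143 for Mvk, mevalonate kinase (0.0463). The median of this list was -0.41, beside -0.67 for the 9 members and 0.02 for the 5 other genes of the steps after squalene.

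Among 11 listed genes of SREBP sensing and sterol import (12 in the list), 5 were called lower in WT. In WT, Srebf2 was at 35.8, 28.1 and 24.6 CPM on chow and 9.13, 11.5 and 10.9 on HFD, and in meKO at 15.8, 16.5 and 19.8 on chow and 12.6, 10.6 and 9.97 on HFD. It fell by 1.49 ± 0.163 in WT (adjusted p = 0.000678), and its log2 difference was -0.65 ± 0.162 in meKO (adjusted p = 0.14). On chow, meKO libraries lay below WT ones for Srebf2, with a log2 difference of -0.77 ± 0.159 that did not pass (adjusted p = 0.0776). In the edgeR fit with the length and GC correction this genotype difference was -0.47 (adjusted p = 0.165). The diet difference of Srebf2 in WT was then -1.06 (adjusted p = 0.00166).

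Also called lower in WT were the cytosolic sterol carrier Stard4 (-1.91 ± 0.26, adjusted p = 0.00287) and Insig1, which retains SREBP (-0.68 ± 0.164, 0.0191). Their log2 differences in meKO were -1.41 ± 0.26 (adjusted p = 0.053) and -0.78 ± 0.164 (0.0887). Of 5 genes for sterol-regulated turnover of the enzymes, 1 was called lower in WT (11.8% of all genes were), Marchf6, the ubiquitin ligase of squalene epoxidase (-0.55 ± 0.165, adjusted p = 0.035; 0.133 with the length and GC correction).

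In the opposite direction, 7 of 9 LXR receptor and target genes were called higher on HFD in WT, where 9.5% of all genes were. Scd1, a fatty acid desaturase, rose by 1.21 ± 0.155 (adjusted p = 0.00207), Scd2, another desaturase, by 1.20 ± 0.224 (0.01), Lpcat3, a phospholipid-remodelling acyltransferase, by 0.67 ± 0.0971 (0.00388) and Nr1h3, which encodes LXR alpha, by 0.59 ± 0.116 (0.0111). Scd1 also rose in meKO, by 1.53 ± 0.158 (adjusted p = 0.002), the only gene of the 7 lists called there by edgeR before correction; with the length and GC correction Scd2 (1.27, adjusted p = 0.0268) and Stard4 (-1.34, adjusted p = 0.0426) were among those that passed in meKO. Of 4 listed genes of cholesterol storage and oxysterol formation (6 in the list), 1 was called lower in WT (11.8% of all genes were), Soat1, the cholesterol-esterifying enzyme (-0.44 ± 0.111, adjusted p = 0.0219; 0.45 with the length and GC correction).

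**Figure D4:**
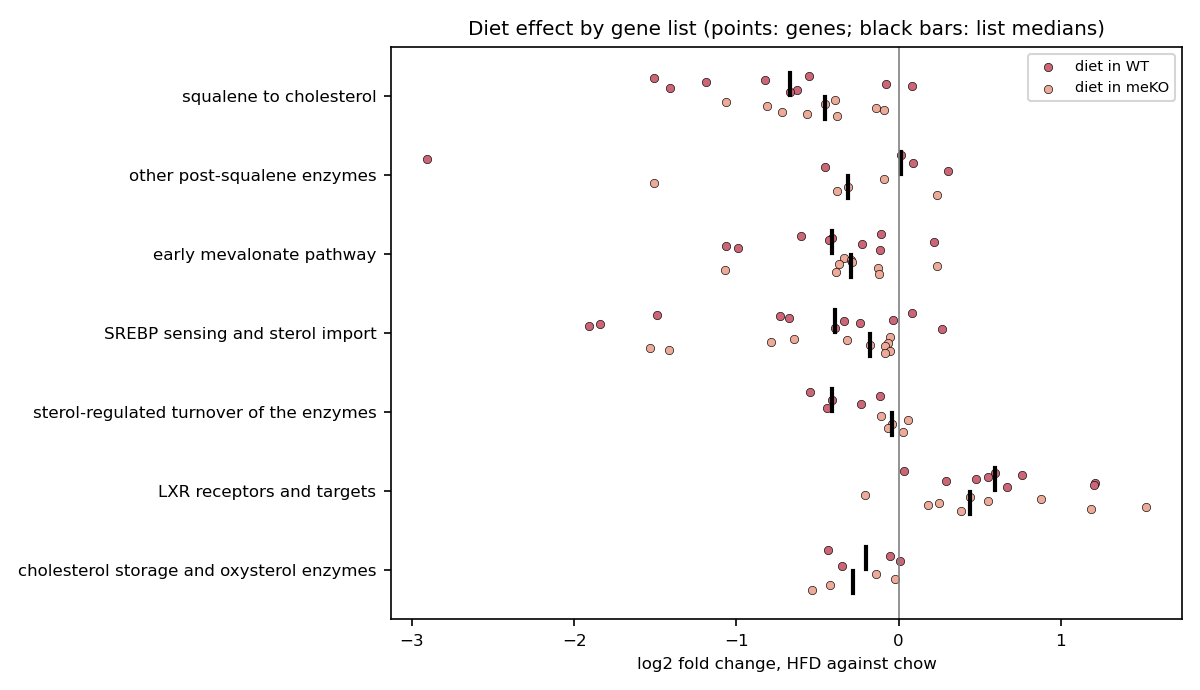
Log2 fold change of HFD against chow for the genes of 7 sterol lists in WT and in meKO; each point is a gene and black bars are list medians. The medians in WT were -0.67 for the squalene to cholesterol enzymes, 0.02 for the other post-squalene list, -0.41 for the early mevalonate pathway and 0.59 for LXR receptors and targets.

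Genes whose pattern was most like that of the members were ranked by Pearson's r of log2 CPM with the members' mean over 12 libraries, among the 11491 other genes that averaged 1 CPM or more. The members' mean was itself lower on HFD in these libraries, so the ranking picked genes partly for a diet difference. Their diet differences and tests below, in each genotype, follow in part from that choice and lend the members no support. The 10 highest were Chp2 (0.967), Mr1 (0.961), Stard4 (0.95), Selenop (0.943), Mmp9 (0.933), Mmab (0.933), Igfbp4 (0.932), Fdps (0.931), Hmgcs1 (0.926) and Hsd17b11 (0.922). Within groups r was 0.853 for Fdps, 0.79 for Mr1, 0.70 for Hmgcs1 and 0.672 for Chp2, and as low as 0.292 for Mmab. Stard4, Fdps and Hmgcs1 belong to the sterol lists above, Selenop encodes a secreted selenium carrier, Mmab a cobalamin adenosyltransferase, Igfbp4 a binding protein of insulin-like growth factors and Mr1 an antigen-presenting molecule. Chp2, a calcineurin B-like protein, and Mmp9, a secreted gelatinase, were at 6.37 and 15.5 CPM over all libraries and were lower on HFD in WT by log2 differences of -1.72 ± 0.21 (adjusted p = 0.00139) and -1.957 ± 0.215 (adjusted p = 0.000678). Both were also called in meKO, at -1.29 ± 0.21 (adjusted p = 0.0345) and -1.27 ± 0.21 (adjusted p = 0.0367), where none of the 9 enzymes was called by edgeR. Without WT chow 1 and WT chow 2, 3 of the 10 were called in WT, Chp2, Mmp9 and Igfbp4.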

How the data were processed

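The authors deposited raw counts in a single table with Entrez identifiers and symbols; per the submitters' processing notes the build was mm10 and DESeq2 was used, while the aligner, counter, annotation and strand setting are not given in the sources used here. Per the labels, total RNA came from Trizol extraction and libraries were TruSeq. Groups came from sample titles. Replicate pairs had a chi-square of at least 16.9 per degree of freedom, so none were copies.

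Counts of 12339 genes in 12 libraries were fitted with edgeR 4.0.16 in R 4.3.3 (TMM, filterByExpr, robust quasi-likelihood F test, 4 group means), with Benjamini-Hochberg adjustment over all genes; SE is the size of a log2 fold change over the square root of F. Counts were 25844958 to 37282772 per library. CPM is TMM-scaled. Transcript lengths and GC came from the GENCODE annotation of GRCm38 for 93.5% of genes. Alternatives used other scalings, filters, DESeq2 1.42.0, limma-voom 3.58.1, a length and GC correction (lowess span 0.4), the 2 groups alone and leaving out libraries. The model was tested on simulated data.

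Members and lists were chosen with earlier results of these data known. Named were all members, up to 4 genes per list with the smallest p for diet averaged over genotypes, Srebf2, Prkce and the 10 genes most like the members; genes that overlap members were added after their values were seen. The ratio test, its alternatives and the fit without WT chow 1 and WT chow 2 were added after seeing the data. Some items withheld for evaluation are not reported here.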

Additional observations from a re-analysis of the deposited data

How the results depend on the processing

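The averaged diet count was 6 or 7 of 9 under each of 21 alternatives, and Sqle and Cyp51 kept their direction in each diet comparison under all that were run. Cyp51 passed in WT under 22 of 22, Sqle under 21 and Fdft1 under 9. The count of members called in WT was 4 after correcting for length and GC, 1 without WT chow 1 and WT chow 2, and 2 to 7 when a single library was left out. In meKO it was 2 with DESeq2, 2 with limma-voom and library quality weights (1.5% of all genes were called lower), 1 with the length and GC correction and 0 to 1 when a library was left out. For genotype on chow it was 2 with library quality weights. These counts need reading beside the share of all genes called lower, which moved as well. Averaged over genotypes that share was 15.3% in the main fit and 10.1% once length and GC were corrected. For diet in WT it was 11.8% in the main fit and 5.64% once corrected. Leaving out WT chow 1, WT HFD 3 or WT HFD 1 brought the WT share to 0.681%, 0.462% or 2.23%, respectively. Shares for most other alternatives are not given here.

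Signs changed for values near 0. The log2 diet difference of Nsdhl in WT was -0.005172 with library totals, -0.05052 after correcting for length and GC and -0.004046 without WT chow 1 and WT chow 2; averaged over genotypes it was 0.00684 with median-of-ratios factors, 0.006994 with DESeq2 and -0.04119 to 0.02527 when a library was left out. For Msmo1 in WT it was 0.005752 with quality weights and -0.1923 to 0.08636 when a library was left out. The Msmo1 difference was further from 0 with the length and GC correction (-0.2385) and without WT chow 1 and WT chow 2 (-0.3472). The ratio of Lss to the other 8 changed by 0.1429 with the length and GC correction and by -0.08951 to 0.03699 without single libraries. The cause was not tested. No paired analysis was possible because replicate numbers only follow the order of the samples. Precision is limited by 3 libraries per group, and Hsd17b7, at 37 to 142 counts, is the least precisely counted enzyme.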
